A study of Mus musculus with 60 samples.

Results

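Unstimulated mouse ear fibroblasts held for 2 h at 24 °C were compared with the same cells held for 2 h at 37 °C, gene by gene, over all 10122 genes of the deposited table. The comparison takes 6 of the 60 libraries of the study, chosen by their labels alone: 3 libraries at 24 °C and 3 libraries at 37 °C. The cells of both groups are 1 immortalised line, named GR NLS-iRFP-NLS in the labels, grown out of ear tissue of adult DKI mice over about 20 to 25 passages. They carry fluorescent reporters of RelA and c-Rel at the endogenous loci, and neither group received a cytokine. All dishes stood overnight at 37 °C before they were moved to incubators at 24, 34, 37 or 40 °C. The other groups of the study are unstimulated cells at 34 and 40 °C, and cells that received a cytokine after those 2 h, 10 ng/mL of TNF-α or of IL-1β, and were taken 1 or 3 h later. The labels call the 3 libraries of a group independent biological replicates of this line, so p-values speak of separate cultures of 1 line and not of different animals. The 24 °C libraries have numbers from 46 to 60 and the libraries of the other temperatures from 1 to 45. The labels do not say whether the 24 °C libraries were made on their own. A difference of that kind and the temperature cannot be told apart here.

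Mammalian cells taken well below body temperature slow their enzymes, their transcription and the decay of their RNA, and not all to the same degree. A small group of RNA-binding proteins, with Cirbp and Rbm3 as its best known members, is known to build up in mildly cooled mammalian cells. Immediate-early genes, the first genes that cells switch on after a growth factor or stress without making new protein, give mRNAs that normally last only minutes. Fibroblasts at rest also make large amounts of collagen and other matrix proteins, which give skin its strength.

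Values are FPKM, fragments per kilobase of transcript and per 1e6 fragments. A log2 change is the mean difference of log2(FPKM + 1), 24 °C minus 37 °C, with the standard error (SE) of the model. A gene is called where limma's two-sided test gave a Benjamini-Hochberg adjusted p below 0.05 over all genes, and only called genes are said to have risen or fallen. Of 13 fibroblast markers 11 were measured, all but Dcn and Lum, with 2 called higher and 2 lower. Vim, an intermediate filament of mesenchymal cells, ranged over 2500 to 2919 FPKM at 24 °C and 2347 to 2392 FPKM at 37 °C. The fibroblast surface gene Thy1 ranged over 497 to 549 and 525 to 617 FPKM. The lowest were Twist1, at 25.12 to 33.23 and 19.68 to 21.05 FPKM, and Twist2, at 22.68 to 29.52 and 22.5 to 33.05 FPKM. Of 12 keratinocyte, 11 leukocyte and 7 endothelial markers, 1, 2 and 1 were measured. They were low: the keratin Krt10 ranged over 0 to 0.69 FPKM at 24 °C and 1.25 to 2.45 FPKM at 37 °C, and the macrophage gene Lyz2 over 1.22 to 4.46 and 2.05 to 4.35 FPKM. Of 8 melanocyte and Schwann cell markers 2 were measured, at no more than 4.10 FPKM at 24 °C and 4.58 FPKM at 37 °C. Markers of muscle, fat and cartilage were not all low. Of 9 muscle markers 2 were measured: the calponin gene Cnn1, also in the actin list below, ranged over 121 to 149 FPKM at 24 °C and 177 to 191 FPKM at 37 °C and fell (-0.44, a call lost with any library but 24 °C replicate 2 left out), and the desmin gene Des was at no more than 1.12 FPKM. Of 6 adipocyte markers 3 were measured: Pparg, a regulator of fat cell formation, ranged over 41.7 to 55.7 and 46.8 to 58.0 FPKM and was not called, and Lpl, a lipase, over 24.6 to 27.2 and 32.5 to 50.2 FPKM and fell (-0.62). Fabp4, a fatty acid carrier, ranged over 5.65 to 8.63 and 7.62 to 13.3 FPKM. Of 10 cartilage markers 4 were measured, 2 called higher and 1 lower, with Sox9, a regulator of cartilage genes, at 13.6 to 17.5 FPKM at 24 °C and 5.90 to 8.99 FPKM at 37 °C. The part of other cell types in the results was not tested.

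At 24 °C, 956 genes rose and 1142 fell, so that 20.7% of the genes were called, 9.44% as higher and 11.3% as lower. Only 175 of them differed by at least 2-fold, 94 higher and 81 lower, and the median change over all genes was -0.03. The 3 libraries of each group stood clear of each other (every 24 °C value above or below every 37 °C value) for 883 of the 956 genes that rose and 1052 of the 1142 that fell. Over all genes this held for 1501 in the upward and 1810 in the downward direction. Across genes, log2 values of replicates correlated at Pearson's r of 0.969 to 0.977 at 24 °C and 0.976 to 0.979 at 37 °C, and those of libraries from different groups at 0.954 to 0.969.

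The 24 °C libraries were the shallower ones. The estimated depth was 3.65, 5.08 and 4.44 M (mega) fragments at 24 °C, against 5.67, 7.08 and 6.01 M at 37 °C. Zeros made up 4.54 to 5.49% of the values at 24 °C and 3.35 to 3.84% at 37 °C. The change also went with transcript length: in the 1013 genes with the shortest transcripts (168 to 928 bases, by the longest of each gene) the median log2 change was 0.04, with 11.8% called higher and 2.37% lower, and in the 1013 genes with the longest (from 6459 bases) it was -0.16, with 3.85% called higher and 22.1% lower. All 3 libraries at 24 °C showed this for the longest genes, most in replicate 1 (-0.22, -0.10 and -0.14 in replicates 1, 2 and 3). With the length trend taken out of each library, a setting chosen after the data were seen, the split was 1060 higher and 836 lower. Counts with that adjustment stand below beside several groups of short or long genes. A fit of the 6 libraries alone, with its own spread, called 362 higher and 362 lower. Leaving out 24 °C replicate 1 gave 801 higher and 760 lower.

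**Figure D1:**
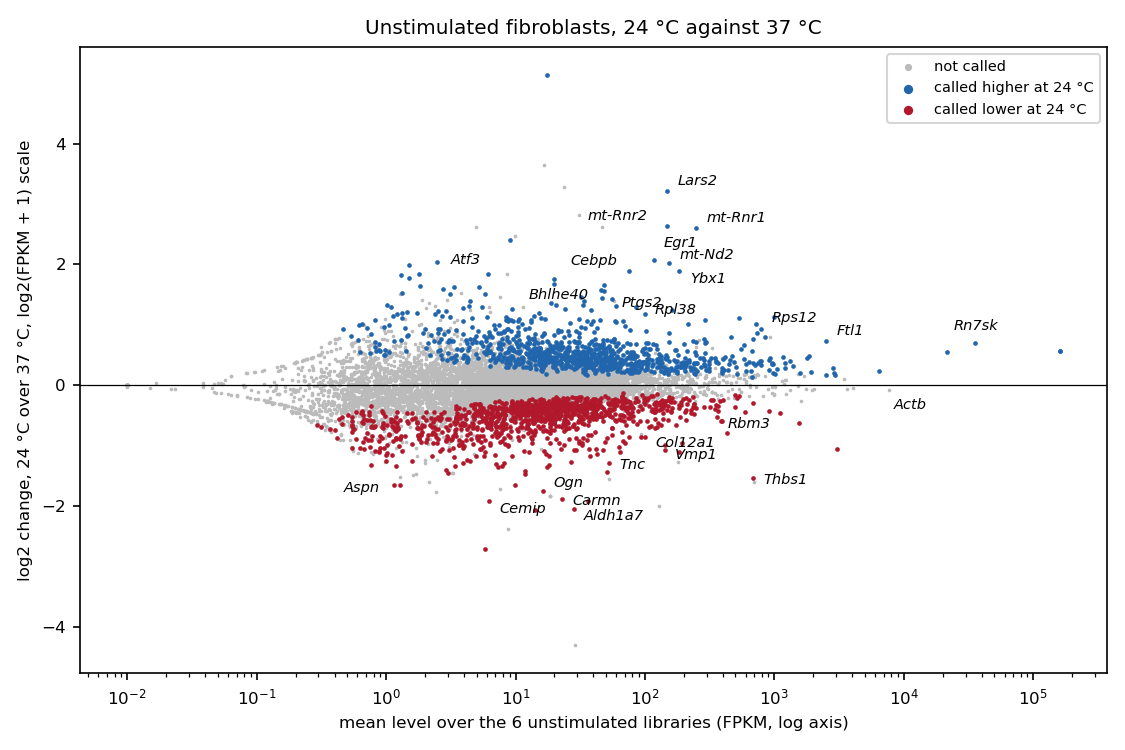
Mean level over the 6 unstimulated libraries (FPKM, log axis) against the log2 change, 24 °C over 37 °C, for 10122 genes, one point each. The 956 genes called higher lie above the line at 0 and the 1142 called lower lie below it, with most changes under 2-fold at every level.

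Most immediate-early genes were higher in the cooled cells. Of 23 measured members 16 rose and 3 fell, with a median log2 change of 0.64. They encode transcription factors and short-lived regulators that answer MAP kinase and serum signals. Egr1, a zinc finger transcription factor, stood at 155, 196 and 200 FPKM at 24 °C and at 63.8, 68.8 and 17.1 FPKM at 37 °C (2.08, SE 0.30, adjusted p = 1.5e-06). Its 37 °C libraries were uneven, with replicate 3 far below the others, and the change ran from 1.45 to 2.42 with 1 library left out. Fos, a subunit of the factor AP-1, had 88.0, 61.6 and 66.4 FPKM at 24 °C against 35.2, 24.7 and 11.6 FPKM at 37 °C (1.67, SE 0.35, adjusted p = 0.0005). The same 37 °C replicate was the lowest for Fos too, yet the groups did not overlap for either gene. Egr2, a relative of Egr1, had 10.9, 8.11 and 7.87 FPKM against 3.11, 3.72 and 1.15 FPKM at 37 °C (1.51, SE 0.31).

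Several members with more even replicates rose too. Jun, the partner of Fos in AP-1, had 47.0, 44.6 and 46.4 FPKM at 24 °C against 24.1, 24.8 and 21.2 FPKM at 37 °C (0.95, SE 0.11, adjusted p = 1.5e-08). Ier3, a regulator of survival and ERK signalling, had 235, 222 and 224 FPKM at 24 °C against 90.0, 106 and 88.9 FPKM at 37 °C (1.25, SE 0.09, adjusted p = 2.2e-14), the smallest adjusted p of the group. Csrnp1, a nuclear protein first known as an AXIN1-induced gene, had 32.0, 27.3 and 33.7 FPKM at 24 °C against 6.79, 8.38 and 10.3 FPKM at 37 °C (1.76, SE 0.25). Each 24 °C library of these genes was above every 37 °C library by a wide margin. Atf3, a stress-induced repressor, had 8.04, 9.20 and 13.2 FPKM against 2.00, 1.91 and 2.28 FPKM at 37 °C (1.84, SE 0.20). The Krüppel-like factors Klf2 (1.03), Klf4 (1.07) and Klf6 (0.33) rose as well, as did Fosb (0.84), Jund (0.51), Plk3 (0.64) and Ier5 (0.47). The last 2 of the 16, Zfp36 and Btg2, act in mRNA decay and are described with it.

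A few members went down. Gadd45b, a sensor of stress that acts on p38 and JNK kinases, had 15.7, 14.2 and 13.6 FPKM at 24 °C against 29.0, 26.4 and 32.3 FPKM at 37 °C (-0.96, SE 0.09, adjusted p = 3.6e-11). Arc, a cytoskeleton-associated early gene best known from neurons, had 6.75, 4.42 and 4.95 FPKM at 24 °C against 9.29, 13.1 and 8.03 FPKM at 37 °C (-0.80, SE 0.19). The nuclear receptor gene Nr4a2 fell by 0.45. Fosl2, Nr4a3, Mafk and Gadd45a were not called. The fit of the 6 libraries alone called 10 members higher and 1 lower.

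Genes that are switched on by the MAP kinase pathway and then restrain it rose beside the immediate-early genes, 7 of 14 with 0 called lower and a median of 0.35. Dusp4, a nuclear phosphatase of ERK and JNK, had 10.4, 6.06 and 8.93 FPKM at 24 °C against 2.10, 2.06 and 1.91 FPKM at 37 °C (1.62, SE 0.19, adjusted p = 2.3e-08). Dusp10, which acts on p38 and JNK, had 11.4, 14.3 and 15.6 FPKM at 24 °C against 6.46, 7.21 and 7.30 FPKM at 37 °C (0.88, SE 0.15). The 37 °C libraries of both phosphatase genes lay within a narrow band, and every 24 °C library was above it. Dusp5, an ERK phosphatase, had 40.1, 43.0 and 41.4 FPKM against 29.6, 29.2 and 27.4 FPKM (0.52). Dusp14 (0.90), Dusp7 (0.37) and Spred2 (0.56), an inhibitor upstream of RAF, rose too. The call of Dusp6 (0.79, adjusted p = 0.026) ended with 24 °C replicate 1 or 3, or 37 °C replicate 1 or 2, left out. Without 24 °C replicate 1, 1 member was called lower.

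Many immediate-early and actin genes are textbook targets of SRF, a factor that binds the CArG box, a pair of C, 6 of A or T and a pair of G. The box was searched in RefSeq promoters (GRCm38.p6, 250 bases before to 50 after a start). It is in 488 of 27025 genes of that table (1.81%), in 115 of the 7500 measured genes that matched (1.53%) and in 2 of the 21 matched immediate-early genes, Egr2 and Zfp36. It is also in 1 of 13 matched MAP kinase feedback genes, Dusp5, and in 5 of 20 actin and SRF genes, Actg1, Cnn2, Myl9, Myl6 and Fhl2. Egr1 and Dusp4 had no promoter in that table and were not searched. Boxes outside the windows, such as farther upstream, were not searched for in any gene. The cyclic AMP element TGACGTCA, searched on both strands, is in 549 of 27025 genes (2.03%), in 276 of the 7500 (3.68%) and in 1 of the 21, Btg2. The windows of Egr2 (chr10:67537619-67537918, plus strand), Zfp36 (chr7:28379179-28379478, minus), Dusp5 (chr19:53528895-53529194, plus), Actg1 (chr11:120348446-120348745, minus) and Cnn2 (chr10:79988350-79988649, plus) are printed because the first 3 carry the box and rose together. Actg1 and Cnn2 carry it and went apart, Actg1 up and Cnn2 down. Capitals mark the CArG box, and the run of capitals in Dusp5 holds 2 boxes side by side.
Egr2: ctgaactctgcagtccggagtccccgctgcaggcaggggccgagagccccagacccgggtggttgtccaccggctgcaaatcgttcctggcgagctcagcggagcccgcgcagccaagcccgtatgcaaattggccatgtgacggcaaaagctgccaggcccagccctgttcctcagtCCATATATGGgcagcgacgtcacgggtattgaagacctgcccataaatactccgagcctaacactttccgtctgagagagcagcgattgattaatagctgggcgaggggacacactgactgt
Zfp36: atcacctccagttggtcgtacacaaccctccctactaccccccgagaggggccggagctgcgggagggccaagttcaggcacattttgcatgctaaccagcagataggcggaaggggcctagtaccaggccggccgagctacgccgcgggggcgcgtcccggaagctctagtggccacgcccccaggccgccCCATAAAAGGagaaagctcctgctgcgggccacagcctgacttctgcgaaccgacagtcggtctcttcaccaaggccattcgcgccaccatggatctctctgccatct
Dusp5: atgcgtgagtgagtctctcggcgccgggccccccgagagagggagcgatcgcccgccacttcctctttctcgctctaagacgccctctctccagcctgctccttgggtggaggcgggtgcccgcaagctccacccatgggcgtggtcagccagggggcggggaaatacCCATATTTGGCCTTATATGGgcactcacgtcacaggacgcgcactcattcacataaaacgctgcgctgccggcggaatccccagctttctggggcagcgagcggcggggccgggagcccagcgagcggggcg
Actg1: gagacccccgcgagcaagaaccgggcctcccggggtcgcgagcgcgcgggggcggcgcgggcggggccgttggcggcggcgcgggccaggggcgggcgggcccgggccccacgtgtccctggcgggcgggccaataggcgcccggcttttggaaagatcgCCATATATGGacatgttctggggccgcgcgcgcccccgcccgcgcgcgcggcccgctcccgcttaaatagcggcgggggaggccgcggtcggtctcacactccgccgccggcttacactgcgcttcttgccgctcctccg
Cnn2: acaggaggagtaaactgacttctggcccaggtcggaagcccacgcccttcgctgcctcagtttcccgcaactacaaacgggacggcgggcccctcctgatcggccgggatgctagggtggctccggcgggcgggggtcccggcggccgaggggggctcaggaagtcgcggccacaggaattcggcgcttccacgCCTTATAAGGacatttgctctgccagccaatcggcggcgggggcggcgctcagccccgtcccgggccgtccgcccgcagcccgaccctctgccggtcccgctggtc
A match is a run of letters in a window of 300 bases and says nothing of what binds there, and 1 other window of Egr2 in the table holds a different CArG box.

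Among 27 measured chemokine, cytokine and effector genes 5 rose and 3 fell, which is close to the shares over all genes for the falls (11.3%) and above them for the rises (9.44%). Ptgs2, the inducible cyclooxygenase of prostaglandin synthesis, had 65.5, 88.0 and 89.4 FPKM at 24 °C against 27.7, 37.3 and 23.6 FPKM at 37 °C (1.44, SE 0.18, adjusted p = 4.2e-08). Cxcl1, a neutrophil chemokine, had 23.1, 34.1 and 32.8 FPKM at 24 °C against 11.8, 13.5 and 3.66 FPKM at 37 °C (1.68, SE 0.24). Ccl2, a monocyte chemokine, had 43.3, 62.5 and 49.1 FPKM at 24 °C against 33.2, 21.2 and 21.2 FPKM at 37 °C (1.02, SE 0.17). None of the 3 overlapped between the groups. Lif (0.92), a cytokine of the IL-6 family, and the adhesion gene Vcam1 (0.41) rose with them. The 3 falls were weak: Ccl9 (-1.07), Lcn2 (-1.15) and C3 (-0.57), of which 0 stayed called without 24 °C replicate 1. Il6 had 6.89, 9.73 and 10.4 FPKM at 24 °C against 6.89, 6.86 and 4.54 FPKM at 37 °C (0.50, adjusted p = 0.16). The adhesion gene Icam1 was near 1 FPKM in all 6 libraries, at 1.06, 1.10 and 0.67 against 0.99, 0.79 and 1.04 FPKM at 37 °C. With the 6 libraries alone 1 member was called higher and 1 lower.

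Of 14 NF-κB genes 3 were called higher and 2 lower, with a median of 0.04. These are 21.4 and 14.3%, against 9.44 and 11.3% over all genes. Tnfaip3, a deubiquitinase that shuts the pathway off, had 12.6, 11.2 and 10.6 FPKM at 24 °C against 7.18, 6.89 and 6.91 FPKM at 37 °C (0.63, SE 0.11, adjusted p = 1.7e-05). Bcl3, a nuclear cofactor of the pathway, had 12.6, 14.4 and 8.34 FPKM at 24 °C against 7.81, 3.97 and 5.39 FPKM at 37 °C (0.94, SE 0.21). Both sets of libraries stood clear of each other. The inhibitor gene Nfkbia overlapped, with 30.1, 39.2 and 28.6 FPKM at 24 °C against 38.0, 29.1 and 25.3 FPKM at 37 °C (0.09), as did Nfkb1 (0.04) and Relb (-0.02). Rel, the c-Rel gene, had 1.78, 1.89 and 1.97 FPKM at 24 °C against 2.49, 2.13 and 2.34 FPKM at 37 °C (-0.20, adjusted p = 0.12). The kinase gene Chuk (-0.37) and the deubiquitinase gene Cyld (-0.38) fell, and the 2 falls were 0 without 37 °C replicate 3. Nfkbib rose by 0.53, a call lost without 24 °C replicate 1, 37 °C replicate 2 or 37 °C replicate 3.

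**Figure D2:**
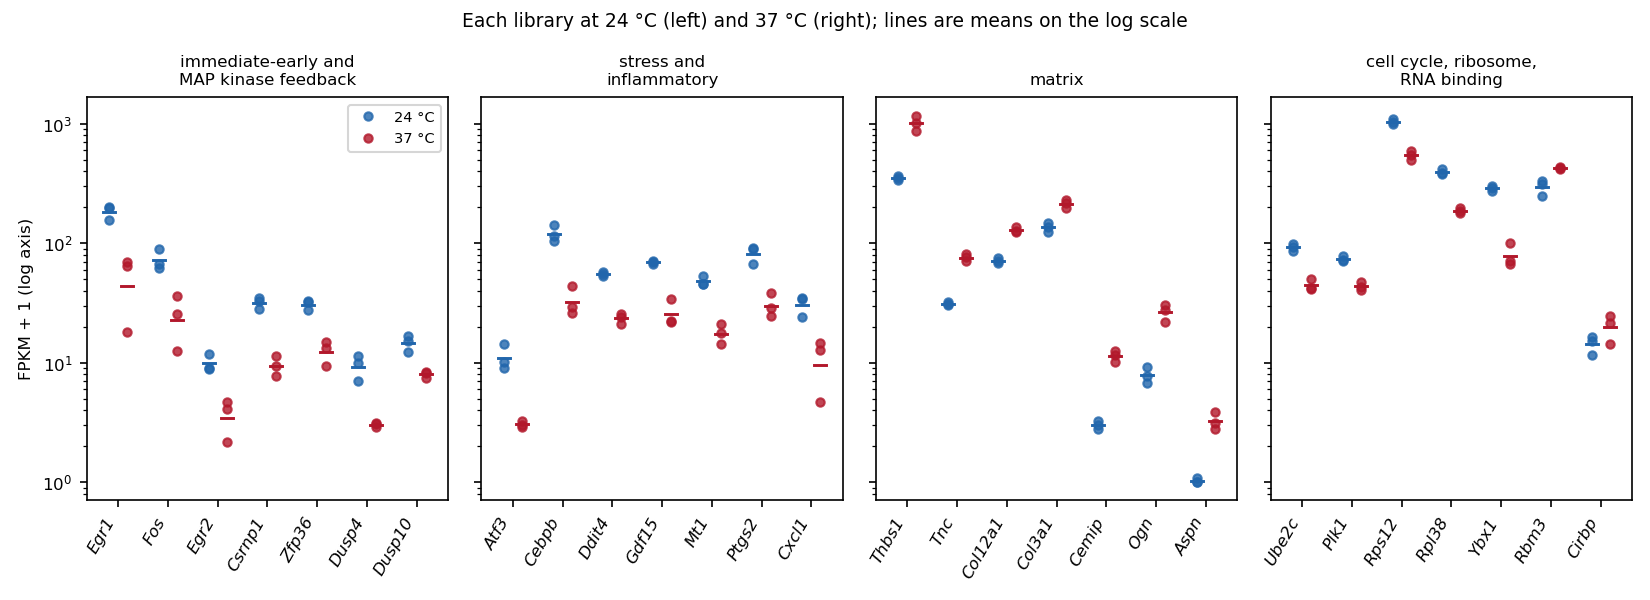
Each point is 1 library, FPKM + 1 on a log axis, with 24 °C left of 37 °C for every gene and a line at the mean of each group on the log scale. Egr1, Dusp4, Ybx1 and Rps12 are higher at 24 °C in all 3 libraries, Thbs1, Tnc, Cemip and Ogn are lower in all 3, and Cirbp overlaps.

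Heat shock genes, which encode chaperones that refold proteins, were called higher in 10 of 24 cases at 24 °C and lower in 1, by small amounts (median 0.16). Fkbp4, a co-chaperone of Hsp90 and steroid receptors, had 122, 125 and 119 FPKM at 24 °C against 73.8, 81.4 and 82.7 FPKM at 37 °C (0.62, SE 0.07, adjusted p = 2.6e-09). Hsp90aa1, the stress-inducible Hsp90, had 254, 246 and 255 FPKM at 24 °C against 151, 182 and 175 FPKM at 37 °C (0.57, SE 0.12). A 50-base word search found 58.5% of its sequence elsewhere in the annotated transcripts. The Hsp90 activator gene Ahsa1 (0.35), the co-chaperone gene Bag3 (0.45) and the constitutive Hsp90ab1 (0.19) rose as well. Hspa1b, an inducible Hsp70, had 46.7, 48.9 and 46.8 FPKM at 24 °C against 36.2, 39.4 and 35.3 FPKM at 37 °C (0.35, adjusted p = 0.033). That call was lost without any of 24 °C replicates 1, 2 or 3 or 37 °C replicates 1 or 3, and its neighbour Hspa1a (0.71) shares 66.3% of its words. The small chaperone gene Hspb1 averaged 96.6 FPKM at 24 °C and 115 FPKM at 37 °C and was not called (-0.25). The heat shock factor gene Hsf2 fell by 0.44. The count of rises was 5 without 24 °C replicate 2, 24 °C replicate 3 or 37 °C replicate 3, and 5 with the 6 libraries alone.

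Neither of the 2 measured cold-inducible RNA-binding genes was called higher in these unstimulated cells. Rbm3 had 249, 312 and 328 FPKM at 24 °C against 427, 432 and 416 FPKM at 37 °C (-0.53, SE 0.11, adjusted p = 0.0005), with no overlap. Cirbp had 10.7, 14.1 and 15.5 FPKM at 24 °C against 23.6, 20.7 and 13.4 FPKM at 37 °C (-0.47, SE 0.23, adjusted p = 0.15), with 1 library of 37 °C inside the 24 °C range. Ybx1, another RNA-binding protein with a cold shock domain, stood apart from both at 302, 275 and 290 FPKM at 24 °C against 99.8, 69.4 and 65.9 FPKM at 37 °C (1.89, SE 0.24, adjusted p = 1.2e-07). Of its words 25.1% occur elsewhere in the annotated transcripts, so reads of copies may count toward it.

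The joint list of the unfolded protein response and the integrated stress response split, with 7 higher and 5 lower of 26. These are 26.9 and 19.2%, against 9.44 and 11.3% over all genes. Cebpb, a transcription factor of stress and inflammation, had 141, 103 and 113 FPKM at 24 °C against 42.9, 28.1 and 24.8 FPKM at 37 °C (1.89, SE 0.22, adjusted p = 1.6e-08). Ddit4, an mTORC1 inhibitor, had 56.8, 54.6 and 52.5 FPKM at 24 °C against 23.2, 24.4 and 20.1 FPKM at 37 °C (1.24, SE 0.15). Ppp1r15a, the phosphatase cofactor that ends the integrated stress response, had 71.6, 61.7 and 50.7 FPKM at 24 °C against 36.8, 28.8 and 20.9 FPKM at 37 °C (1.09, SE 0.19). Each of them was higher in every 24 °C library. The other rises were chaperones and disulfide isomerases of the endoplasmic reticulum, Calr (0.46), Pdia3 (0.29), Pdia4 (0.24) and Canx (0.23). The stress sensor genes Atf6 (-0.64) and Ern1 (-0.64) fell, with Cebpg (-0.47), the asparagine synthetase gene Asns (-0.32) and the serine pathway gene Psat1 (-0.23). The most abundant chaperone of that compartment, Hspa5, had 311, 297 and 305 FPKM at 24 °C against 302, 280 and 263 FPKM at 37 °C (0.12, adjusted p = 0.57), and Herpud1 (-0.16) and Ddit3 (0.37) were not called. Without 37 °C replicate 3 the falls were 3.

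Further stress genes moved outside those lists. Gdf15, a secreted stress cytokine and p53 target, had 70.7, 66.7 and 68.7 FPKM at 24 °C against 20.8, 33.4 and 21.3 FPKM at 37 °C (1.44, SE 0.15, adjusted p = 1.7e-09). Trp53inp1, a p53-induced nuclear protein, went down at 2.91, 5.40 and 4.73 FPKM against 13.3, 10.1 and 12.1 FPKM at 37 °C (-1.29, SE 0.16). Of 12 p53 targets 3 rose and 3 fell (25.0% each, against 9.44 and 11.3% over all genes), so the list had no common direction. The metallothionein gene Mt1, which binds zinc and copper, had 44.7, 44.4 and 51.9 FPKM at 24 °C against 20.1, 13.2 and 16.8 FPKM at 37 °C (1.46, SE 0.22), and Mt2 rose by 1.29. With Gclm (0.68) of glutathione synthesis, Nqo1 (0.47), Srxn1 (0.42), Osgin1 (0.55) and Txn1 (0.30), 8 of 22 antioxidant and metal-response genes rose and 2 fell, Gstm1 (-0.39) and Gpx1 (-0.32). Those are 36.4 and 9.09%, against 9.44 and 11.3% over all genes, and the rises were 5 without 37 °C replicate 3. The last of the rises, the ferritin gene Ftl1 (0.74), shares 90.6% of its words with other transcripts.

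The circadian clock list held 3 rises and 3 falls of 15 (20.0% each, against 9.44 and 11.3% over all genes). With the 6 libraries alone it had 2 rises and 0 falls. Bhlhe40, a repressor that cells switch on by many stimuli, had 76.5, 73.5 and 67.5 FPKM at 24 °C against 22.9, 25.5 and 23.2 FPKM at 37 °C (1.56, SE 0.12, adjusted p = 3.5e-13). Nr1d1, the nuclear receptor REV-ERBα of the negative limb, had 11.3, 15.7 and 16.8 FPKM at 24 °C against 8.41, 6.01 and 5.12 FPKM at 37 °C (1.06, SE 0.28). Arntl, which encodes BMAL1 of the positive limb and is repressed by REV-ERBα, had 1.86, 2.24 and 1.88 FPKM at 24 °C against 7.41, 6.01 and 2.52 FPKM at 37 °C (-0.99, SE 0.28). The 37 °C libraries of Arntl spread widely, and its call ended without replicate 1 of them. Clock, the partner of BMAL1, fell by 0.41, and Per1, a light- and serum-induced repressor, by 0.63 (9.58, 9.33 and 6.51 FPKM against 15.2, 13.3 and 12.1 FPKM at 37 °C). Per2 was not called (0.47). Dbp rose by 1.08, a call lost without 37 °C replicate 2, and shares 27.5% of its words with other transcripts, mainly of Sphk2.

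Cell cycle genes were higher at 24 °C, with 19 of 37 mitotic genes called up and 0 called down (median 0.37). They encode kinases, motor proteins and ubiquitin ligase parts that appear as cells enter and leave mitosis. Ube2c, the ubiquitin-conjugating enzyme of the anaphase-promoting complex, had 85.3, 92.6 and 98.0 FPKM at 24 °C against 40.9, 49.4 and 40.3 FPKM at 37 °C (1.06, SE 0.14, adjusted p = 1.4e-07). Plk1, a kinase of mitotic entry, had 72.1, 70.6 and 77.8 FPKM at 24 °C against 39.6, 46.4 and 41.9 FPKM at 37 °C (0.77, SE 0.14). Cdc25b, the phosphatase that starts mitosis through Cdk1, had 34.8, 27.6 and 29.1 FPKM at 24 °C against 16.4, 19.7 and 15.1 FPKM at 37 °C (0.80, SE 0.11). These 3 genes did not overlap between the groups. Aurka (0.65), Birc5 (0.65), Cdc20 (0.66), Mki67 (0.58) and Cdk1 (0.45) rose by less, and Cenpa (0.70) lost its call without 24 °C replicate 1 or 37 °C replicate 3. With the length trend taken out 20 were called higher, and with the 6 libraries alone 11.

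DNA replication and G1/S genes followed with 15 of 37 higher and 1 lower (median 0.24). Dut, which keeps uracil out of DNA, had 59.6, 57.1 and 61.5 FPKM at 24 °C against 35.8, 42.7 and 39.5 FPKM at 37 °C (0.59, SE 0.13, adjusted p = 0.00075). The G1/S factor E2f1 rose by 0.44, the helicase subunits Mcm3 by 0.45 and Mcm2 by 0.34, and Pcna by 0.25. Cdt1 rose by 0.48, a call lost without replicate 1 of either group. Ccnd2, a D-type cyclin that mitogens raise, was the 1 fall, at 155, 116 and 126 FPKM against 169, 153 and 178 FPKM at 37 °C (-0.34). Gins2 (0.57) had overlapping libraries and shares 70.3% of its words. The rises were 9 without 37 °C replicate 1 and 8 with the 6 libraries alone. In bulk RNA more cells in a phase and more mRNA per cell cannot be told apart, here or for any group of genes.

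Many matrix genes were lower at 24 °C. Of 20 collagen genes 11 fell and 1 rose, with a median of -0.35. Col12a1, a collagen that decorates fibril surfaces, had 67.5, 73.9 and 70.4 FPKM at 24 °C against 135, 127 and 123 FPKM at 37 °C (-0.85, SE 0.05, adjusted p = 3.3e-16). Col3a1, the chain of fibrillar type III collagen, had 124, 147 and 135 FPKM at 24 °C against 230, 195 and 215 FPKM at 37 °C (-0.65, SE 0.09). The basement membrane gene Col4a5 had 14.0, 11.8 and 12.7 FPKM at 24 °C against 23.7, 21.7 and 21.5 FPKM at 37 °C (-0.76, SE 0.11). In all 3 genes the groups stood well apart.

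The main fibrillar collagen, type I, did not follow as a unit. Col1a2 had 1036, 876 and 868 FPKM at 24 °C against 1319, 1164 and 1324 FPKM at 37 °C (-0.46, adjusted p = 0.0056, and 0.058 with the length trend taken out). Its partner chain Col1a1 had 1407, 1071 and 1054 FPKM at 24 °C against 1178, 1030 and 1148 FPKM at 37 °C (0.06, adjusted p = 0.76), with full overlap. Col6a1 (-0.41), Col6a2 (-0.33), Col5a2 (-0.28) and Col4a2 (-0.38) fell by smaller amounts. Col9a1, a cartilage collagen, rose from a low level, with 1.29, 1.11 and 1.26 FPKM against 0.37, 0.45 and 0.47 FPKM at 37 °C (0.63), and Sox9, the cartilage transcription factor, rose by 1.02. The other measured cartilage markers did not rise. Col11a1 fell, at 0.97 to 1.47 FPKM at 24 °C and 1.87 to 3.65 FPKM at 37 °C. Comp ranged over 4.67 to 5.71 and 5.39 to 7.26 FPKM and was not called. Collagen transcripts are long, with a median of 6024 bases for the longest of each gene. With the length trend taken out 4 fell and 1 rose, without 37 °C replicate 1 the falls were 6, and with the 6 libraries alone 4.

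Small leucine-rich proteoglycans, which bind collagen fibrils and set their width, fell in 5 of 7 cases with 0 rises, also with the length trend taken out. Ogn, or mimecan, had 5.70, 8.26 and 6.74 FPKM at 24 °C against 29.2, 20.8 and 26.8 FPKM at 37 °C (-1.75, SE 0.23, adjusted p = 1.7e-07). Prelp, a heparin-binding member, had 83.3, 97.5 and 87.6 FPKM at 24 °C against 155, 127 and 162 FPKM at 37 °C (-0.71, SE 0.12). Aspn, or asporin, was at 0, 0.09 and 0 FPKM at 24 °C against 2.87, 1.81 and 2.14 FPKM at 37 °C (-1.66, SE 0.29), and Omd went the same way at lower levels (-1.15). Fmod fell by 0.32, and Bgn and Podn were not called.

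Other matrix genes fell as far. Thbs1, a matricellular glycoprotein that activates latent TGF-β, had 361, 337 and 348 FPKM at 24 °C against 1005, 870 and 1168 FPKM at 37 °C (-1.53, SE 0.17, adjusted p = 2.7e-09). Tnc, the wound matrix protein tenascin-C, had 29.6, 29.8 and 31.0 FPKM at 24 °C against 70.1, 75.2 and 79.9 FPKM at 37 °C (-1.29, SE 0.09, adjusted p = 2.2e-14). Cemip, which breaks down hyaluronan, had 1.80, 2.28 and 2.01 FPKM at 24 °C against 11.5, 9.21 and 10.6 FPKM at 37 °C (-1.91, SE 0.15). All 9 values at 24 °C were far under the lowest 37 °C value of their gene. Adamts1, a protease of proteoglycans, had 37.1, 44.4 and 40.0 FPKM at 24 °C against 89.9, 83.8 and 90.5 FPKM at 37 °C (-1.10, SE 0.13), and Mmp2 fell by 0.28. Against that, the hyaluronan synthase gene Has2 (0.77) and the protease inhibitor genes Timp1 (0.53) and Timp3 (0.24) rose. In counts, elastic fibre and glycoprotein genes had 2 rises and 5 falls of 16 (12.5 and 31.25%, median -0.05). The counts were 4 and 4 with the length trend taken out (median 0.03). The rises were 1 without 24 °C replicate 1 or 3 or 37 °C replicate 2 or 3, and with the 6 libraries alone there were 0 rises and 2 falls. Remodelling enzymes had 3 rises and 4 falls of 20 (15.0 and 20.0%, against 9.44 and 11.3% over all genes). The 3 rises were 1 without 24 °C replicate 3 or 37 °C replicate 1. Collagen-processing enzymes also went both ways, with 3 rises, such as P4ha2 (0.52), and 4 falls, such as Crtap (-0.38), of 19 (15.8 and 21.1%). The 4 falls were 1 without 24 °C replicate 1.

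Actin cytoskeleton and SRF target genes, the other group read out from serum signals, fell in 12 of 23 cases and rose in 4. Pdlim5, a scaffold at stress fibres, had 36.4, 45.9 and 42.4 FPKM at 24 °C against 76.7, 84.3 and 94.5 FPKM at 37 °C (-1.02, SE 0.11, adjusted p = 2.3e-09). The actinins Actn1 (-0.35) and Actn4 (-0.39), Tagln (-0.30), Cnn2 (-0.15) and the smooth muscle actin gene Actg2 (-0.77) fell. Zyx, a focal adhesion protein, had 285, 300 and 295 FPKM at 24 °C against 202, 216 and 201 FPKM at 37 °C (0.51, SE 0.07) and rose, with Tpm2 (0.38), Tagln2 (0.20) and Actg1 (0.17, 56.7% of its words shared). Actb, the most used reference gene, was not called, with means of 7488 FPKM at 24 °C and 7931 FPKM at 37 °C (-0.08). The falls were 6 with the length trend taken out, 6 without 37 °C replicate 3 and 7 with the 6 libraries alone.

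Growth factor and morphogen genes had no common direction. Tgfb3 had 20.4, 23.3 and 22.3 FPKM at 24 °C against 46.5, 39.8 and 45.0 FPKM at 37 °C (-0.96, SE 0.10, adjusted p = 2.3e-09), and Tgfb2 fell by 0.88. Smad7, the feedback inhibitor of the same pathway, had 71.6, 79.9 and 80.7 FPKM at 24 °C against 49.8, 46.8 and 44.6 FPKM at 37 °C (0.70, SE 0.09). Id1, a target of BMP signals that blocks basic helix-loop-helix factors, had 427, 313 and 340 FPKM at 24 °C against 223, 235 and 202 FPKM at 37 °C (0.70, SE 0.10), and Id2 (0.45) and Id3 (0.30) rose. In all, 4 of 24 genes of TGF-β, BMP and Wnt signalling rose and 4 fell (16.7% each, against 9.44 and 11.3% over all genes). Among growth factors and receptors 3 of 27 rose, such as Ereg (0.85), and 6 fell, such as Igf1r (-0.49, adjusted p = 0.056 with the length trend taken out). The falls of that list were 1 with the trend taken out, and 2 without 24 °C replicate 3 or 37 °C replicate 3. The cation channel gene Trpv2 (-1.11) and the calcium pump gene Atp2b4 (-0.78) fell. Of 18 channel genes 3 fell and 1 rose (16.7 and 5.56%, against 11.3 and 9.44% over all genes). The rise was lost without 24 °C replicate 3 or 37 °C replicate 3.

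**Figure D3:**
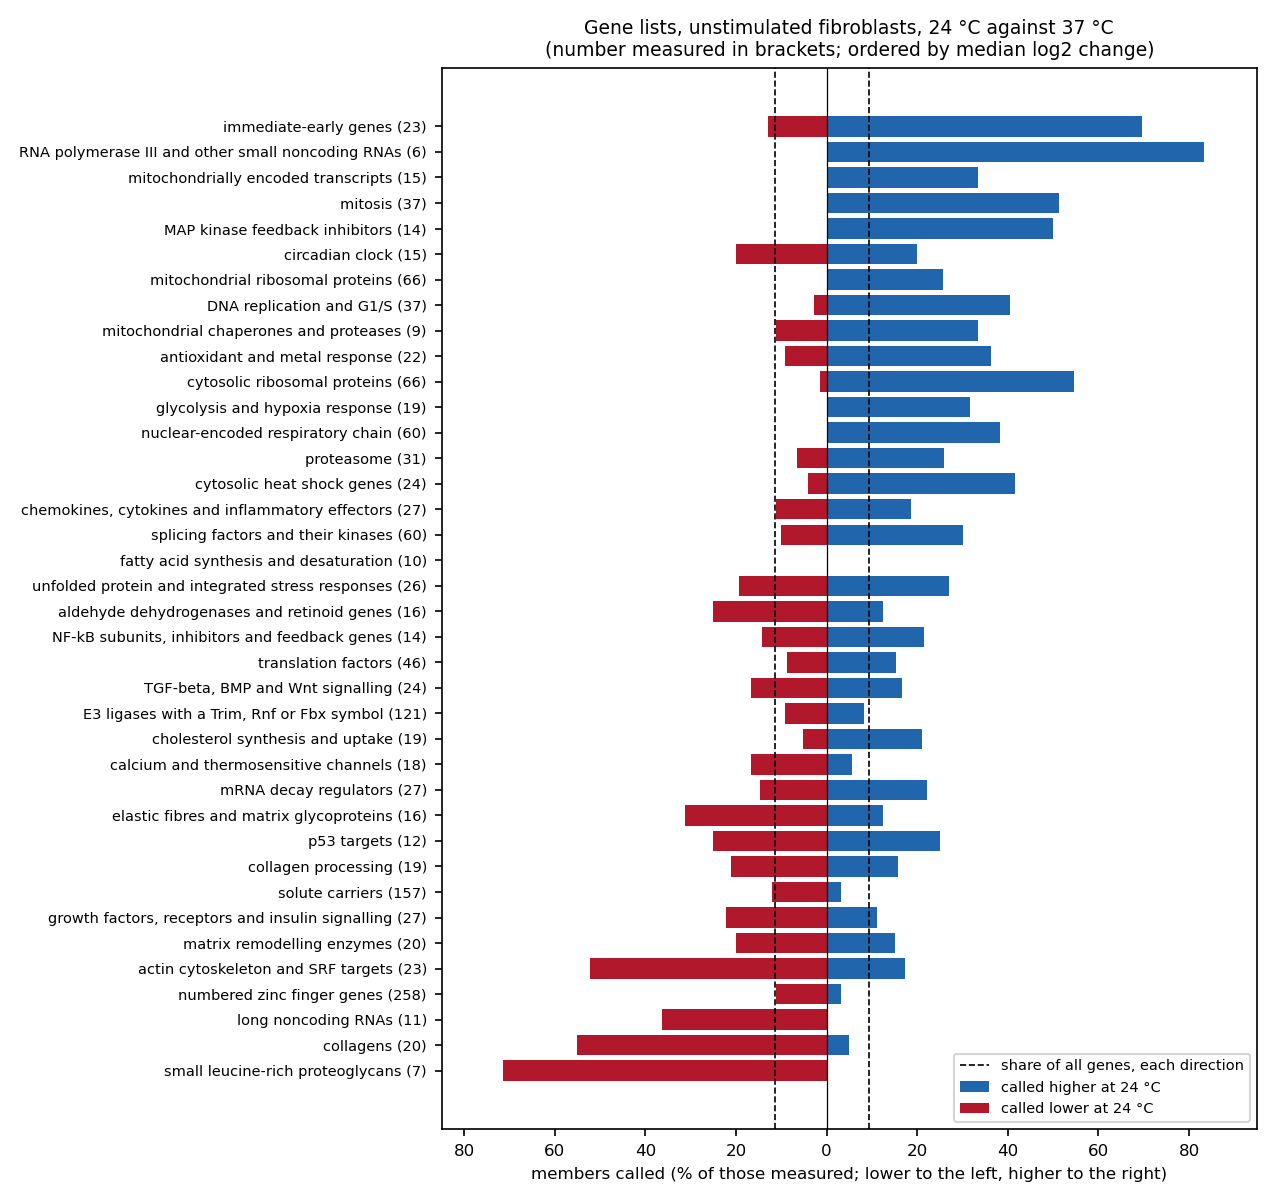
Share of each gene list called higher (right, blue) and lower (left, red) at 24 °C, in percent of the measured members, whose number is in brackets. Dashed lines mark the shares over all genes, 9.44% higher and 11.3% lower. Among lists of at least 20 measured genes, immediate-early genes reach furthest up, with 16 of 23, and collagens furthest down, with 11 of 20.

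In several housekeeping machineries more genes were called higher than lower. Of 66 cytosolic ribosomal protein genes 36 were called higher and 1 lower (median 0.20). Rps21 had 949, 1002 and 935 FPKM at 24 °C against 525, 446 and 465 FPKM at 37 °C (1.01, SE 0.10, adjusted p = 1.8e-10), and Rps12 had 1004, 1089 and 1038 FPKM against 550, 593 and 494 FPKM (0.94, SE 0.10). Rpl38 was alike (1.08), with 40.2% of its words shared. No library of these genes overlapped. Such transcripts are short, and ribosomal protein genes have many processed copies. With the length trend taken out 31 were called higher and 4 lower, and with the 6 libraries alone 15 and 0.

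Of 60 nuclear-encoded respiratory chain genes 23 rose and 0 fell (19 and 0 with the length trend taken out). Ndufc2, a subunit of complex I, had 52.0, 55.6 and 60.6 FPKM at 24 °C against 23.9, 34.2 and 28.6 FPKM at 37 °C (0.94, SE 0.13, adjusted p = 8e-07). Atp5b, the catalytic subunit of ATP synthase, had 868, 853 and 813 FPKM at 24 °C against 667, 678 and 625 FPKM at 37 °C (0.36, SE 0.07). Both were higher in each 24 °C library. Of 66 mitochondrial ribosomal protein genes 17 rose and 0 fell, and Mrps15 (1.08) is one of them. Without 37 °C replicate 3 the rises were 15 and 9, and with the 6 libraries alone 12 and 6. The list of mitochondrial chaperones and proteases held 9 measured genes. It includes Lars2, which encodes neither and is described with the mitochondrial transcripts. Hspd1 (0.44), Trap1 (0.16) and Lars2 rose. The protease gene Yme1l1 fell (-0.43), and that list had 0 falls without 24 °C replicate 1, 37 °C replicate 1 or 37 °C replicate 3, and with the length trend taken out. Of 31 proteasome genes 8 rose and 2 fell (25.8 and 6.45%, against 9.44 and 11.3% over all genes). Psmb10, a subunit of the immunoproteasome, had 22.5, 16.6 and 19.6 FPKM at 24 °C against 9.96, 6.43 and 8.63 FPKM at 37 °C (1.15, SE 0.20). The proteasome rises were 5 without 37 °C replicate 3.

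Genes of RNA processing and translation were mixed. Of 60 splicing factor genes 18 rose and 6 fell (30.0 and 10.0%, against 9.44 and 11.3% over all genes). Sf3a2, part of the U2 particle, had 39.4, 44.2 and 45.6 FPKM at 24 °C against 18.6, 20.7 and 25.6 FPKM at 37 °C (0.97, SE 0.17). Clk4 and Clk1, which encode kinases of SR splicing factors, were among the falls. Clk4 had 15.0, 17.2 and 14.4 FPKM at 24 °C against 31.1, 30.1 and 34.0 FPKM at 37 °C (-0.99, SE 0.15). Clk1 had 15.6, 26.8 and 21.6 FPKM against 47.4, 41.2 and 33.3 FPKM (-0.92, SE 0.18). The 6 falls were 3 without 24 °C replicate 1, 37 °C replicate 2 or 37 °C replicate 3. Translation factor genes had 7 rises and 4 falls of 46 (15.2 and 8.70%, against 9.44 and 11.3% over all genes). Their rises were 2 without 37 °C replicate 3. Eif1, which guards the choice of start codon, had 480, 530 and 500 FPKM at 24 °C against 688, 668 and 705 FPKM at 37 °C (-0.45, SE 0.06, adjusted p = 7.7e-07).

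Regulators of mRNA decay included strong rises. Zfp36, or tristetraprolin, which marks AU-rich inflammatory mRNAs for decay, had 26.4, 31.0 and 31.8 FPKM at 24 °C against 13.9, 12.2 and 8.31 FPKM at 37 °C (1.32, SE 0.14, adjusted p = 4.6e-10). Its relatives Zfp36l1 (0.86, 56.9% of words shared) and Zfp36l2 (0.43) rose too, with the deadenylation cofactors Btg1 (0.52) and Btg2 (0.60). The call of Btg2 ended without 37 °C replicate 3 (0.30). Xrn1, the exonuclease that degrades uncapped mRNA, had 4.59, 4.55 and 4.73 FPKM at 24 °C against 7.18, 9.21 and 7.91 FPKM at 37 °C (-0.69, SE 0.17), with all 24 °C libraries lower. In all, 6 of 27 members rose and 4 fell (22.2 and 14.8%, against 9.44 and 11.3% over all genes). The falls were 2 without 37 °C replicate 3.

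Small noncoding RNAs made by RNA polymerase III held about as much of the summed FPKM as all other genes together, and most of them were higher at 24 °C, 5 of 6 with 0 lower. It was 4 with the length trend taken out and 2 with the 6 libraries alone. The 7SL RNA of the signal recognition particle, listed as Rn7s1 and Rn7s2 with equal values, stood at 204603, 185445 and 188207 FPKM at 24 °C against 137379, 124440 and 130233 FPKM at 37 °C (0.56, SE 0.07). Rn7s1 and Rn7s2 share all their words and count as 2 of the 6. Rn7sk, which holds back transcription elongation, had 43820, 44695 and 42049 FPKM at 24 °C against 28539, 27570 and 24390 FPKM at 37 °C (0.70, SE 0.08). Rpph1, the RNA of ribonuclease P, had 25161, 26172 and 25410 FPKM against 18468, 16047 and 17734 FPKM (0.56). Rn7sk and Rpph1 each share 68.1% of their words with other transcripts. Together the 6 RNAs took 54.4 ± 1.52% of the summed FPKM at 24 °C and 45.8 ± 1.19% at 37 °C (SD, n = 3 each). Sums over all genes were 864578, 840358 and 841187 at 24 °C against 699626, 669950 and 671439 at 37 °C. Without these and the mitochondrial transcripts the sums were 372005, 377844 and 379990 against 364033, 363472 and 355693. Ribosomal proteins took 5.83 ± 0.179% of the FPKM at 24 °C and 6.17 ± 0.199% at 37 °C, and after those RNAs were removed 13.1 ± 0.0675% and 11.6 ± 0.245%, so the direction of that share flips with the denominator. Collagens took less at 24 °C either way, 0.454 ± 0.025% and 0.680 ± 0.0367% of all, and 1.03 ± 0.0849% and 1.28 ± 0.0948% without them.

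Transcripts of the mitochondrial genome gave 5 rises and 0 falls of 15, with large spread inside the 24 °C group. The ribosomal RNA mt-Rnr1 had 627, 256 and 402 FPKM at 24 °C against 61.3, 56.5 and 81.3 FPKM at 37 °C (2.60, SE 0.50, adjusted p = 0.00015), and mt-Rnr2 had 374, 174 and 220 FPKM against 36.0, 35.8 and 43.0 FPKM (2.64, SE 0.50). Lars2, the nuclear gene of mitochondrial leucyl-tRNA synthetase, had 392, 182 and 236 FPKM at 24 °C against 21.8, 27.3 and 32.4 FPKM at 37 °C (3.21, SE 0.50, adjusted p = 4.5e-06). Among the 24 °C libraries all 3 were highest in replicate 1 and lowest in replicate 2. The protein-coding mt-Nd2 had the other order, with 92.8, 360 and 312 FPKM at 24 °C against 44.4, 57.9 and 58.2 FPKM at 37 °C (2.02, SE 0.35). mt-Nd1, another subunit of complex I, rose by 0.87. mt-Nd5 (0.87) lost its call without 24 °C replicate 2 or 3. mt-Co1, of cytochrome oxidase, had 2607, 4915 and 4612 FPKM at 24 °C against 3869, 4253 and 3882 FPKM at 37 °C (-0.04). Replicate 1 at 24 °C was the low one for all 4 of these protein genes. The gene model Gm28437, all of whose words occur in mt-Co3, a subunit of cytochrome oxidase, had 817, 2287 and 3458 FPKM at 24 °C against 3409, 3848 and 4350 FPKM at 37 °C (-1.05), a call lost without 24 °C replicate 1 or 37 °C replicate 3. mt-Co3 had 1277, 1545 and 0.19 FPKM at 24 °C against 650, 512 and 197 FPKM at 37 °C and was not called. Their sums were 2094, 3832 and 3458 FPKM at 24 °C against 4059, 4361 and 4547 FPKM at 37 °C. Which reads belong to which of the 2 was not tested.

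Long noncoding RNAs fell in 4 of 11 cases with 0 rises. Gas5, a host of small nucleolar RNAs, had 35.3, 44.4 and 40.1 FPKM at 24 °C against 76.8, 77.5 and 61.0 FPKM at 37 °C (-0.83, SE 0.18), and Snhg3 (-1.09, 72.0% of words shared) and Snhg1 (-0.51) are hosts of the same kind. Carmn, a host of smooth muscle microRNAs, was outside that list and had 7.01, 10.6 and 10.0 FPKM at 24 °C against 30.8, 33.6 and 45.6 FPKM at 37 °C (-1.88, SE 0.17, adjusted p = 2e-11). Every 24 °C library of these genes was lower than every 37 °C library. Other large falls by the same ranking were Aldh1a7 (-2.05), a cytosolic aldehyde dehydrogenase, and Clec2d (-1.43), a ligand of NK cell receptors. Itga8 (-1.46), an integrin of contractile fibroblasts, Cd59a (-1.42), a complement inhibitor, and Zfc3h1 (-1.35), a factor of nuclear RNA decay, were among them. Zfp950 (-2.07) had 60.7 FPKM in 37 °C replicate 3 and 8.20 and 6.67 FPKM in the others, against 2.12, 2.84 and 3.92 FPKM at 24 °C, and lost its call without 3 of the 6 libraries. Among the largest rises, Pagr1b, Sap18b and Rpl17-ps5 share 92.7 to 100% of their words with other transcripts. Pcdhgc4 (2.40), a protocadherin, had 14.9, 15.5 and 14.5 FPKM at 24 °C against 8.57, 0.65 and 0.75 FPKM at 37 °C, and 41.6% of its words occur in other transcripts.

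In broad gene families the falls were near the share over all genes and the rises at or under it. Of 258 numbered zinc finger genes 8 rose and 29 fell, of 157 solute carriers 5 rose and 19 fell, and of 121 E3 ligase genes 10 rose and 11 fell. The zinc finger falls were 18 without 24 °C replicate 1 and 16 without 37 °C replicate 3, and 5 with the 6 libraries alone. The solute carrier rises were 8 without 37 °C replicate 1 and 3 without 37 °C replicate 3, and the E3 ligase rises 3 without 24 °C replicate 1 and 5 without 37 °C replicate 3. The E3 ligase falls were 6 without 24 °C replicate 1 or 37 °C replicate 1, 7 without 24 °C replicate 2 and 5 without 37 °C replicate 3. Of these genes 13 rose and 7 fell with the length trend taken out, and with the 6 libraries alone 3 and 5. Of 1316 gene models without a proper name 48 rose and 117 fell. The largest change in the table was one of these, Gm22973, at 23.1, 40.3 and 41.9 FPKM at 24 °C and listed at 0 in all 3 libraries at 37 °C. Of the metabolic lists, glycolysis and hypoxia genes rose in 6 of 19 cases, such as Pkm (0.34), 3 without 24 °C replicate 1, 24 °C replicate 3 or 37 °C replicate 3. Of 19 cholesterol genes 4 rose and 1 fell, Sc5d (-0.66), with 2 rises without 24 °C replicate 1 and 1 without 37 °C replicate 2. Of 10 genes of fatty acid synthesis and desaturation limma called 0 in either direction, with 3 (Acly, Fasn and Acsl3, all with positive changes) at an unadjusted p under 0.05. With the length trend taken out 3 were called higher, without 24 °C replicate 1 there were 2, and without 37 °C replicate 1 there was 1.

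Unstimulated cells at the other temperatures were set beside these values. Against 34 °C, 1039 genes were higher at 24 °C and 1143 lower (10.3% and 11.3%), a comparison that shares the 24 °C libraries. Between 34 and 37 °C limma called 37 genes (0.366%), and between 40 and 37 °C 217 higher and 202 lower (2.14% and 2.0%). Those calls were fewer with 1 library left out, 14 to 21 between 34 and 37 °C without 34 °C replicate 1 or 2 or 37 °C replicate 1 or 3, and 242 between 40 and 37 °C without 40 °C replicate 3. Egr1 stood at 184, 10.2, 49.9 and 9.32 FPKM at 24, 34, 37 and 40 °C, and Fos at 72.0, 5.67, 23.9 and 10.2 FPKM. Both were thus lower at 34 °C than at 37 °C and highest at 24 °C. Rbm3 stood at 296, 457, 425 and 362 FPKM along the same scale and Cirbp at 13.4, 30.7, 19.2 and 8.35 FPKM, with the highest mean of both at 34 °C (0.10 and 0.68 against 37 °C, neither of them called). Against 34 °C both were called lower at 24 °C (-0.63 and -1.15). Thbs1 stood at 349, 1241, 1014 and 723 FPKM, and Adamts1 at 40.5, 108, 88.0 and 58.3 FPKM.

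Some genes were high at both ends. Gdf15 stood at 68.7, 19.7, 25.2 and 61.7 FPKM at 24, 34, 37 and 40 °C, Fkbp4 at 122, 77.6, 79.3 and 162 FPKM and Hsp90aa1 at 252, 170, 170 and 408 FPKM. The inducible heat shock genes had their peak at 40 °C, Hspa1b at 47.5, 30.9, 37.0 and 207 FPKM and Hspb1 at 96.6, 120, 115 and 701 FPKM. Heat shock genes were called higher in 18 of 24 cases at 40 °C and in 10 at 24 °C, both against the same 37 °C libraries. Between 40 and 34 °C, 5.0% of all genes were called higher and 4.7% lower. Those groups share no library with the means at 24 and 37 °C, only limma's estimate of the spread. Of the 956 genes that rose at 24 °C, 71 were higher and 52 lower at 40 °C than at 34 °C (7.43% the same way), and of the 1142 that fell, 76 were lower and 98 higher (6.65% the same way).

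**Figure D4:**
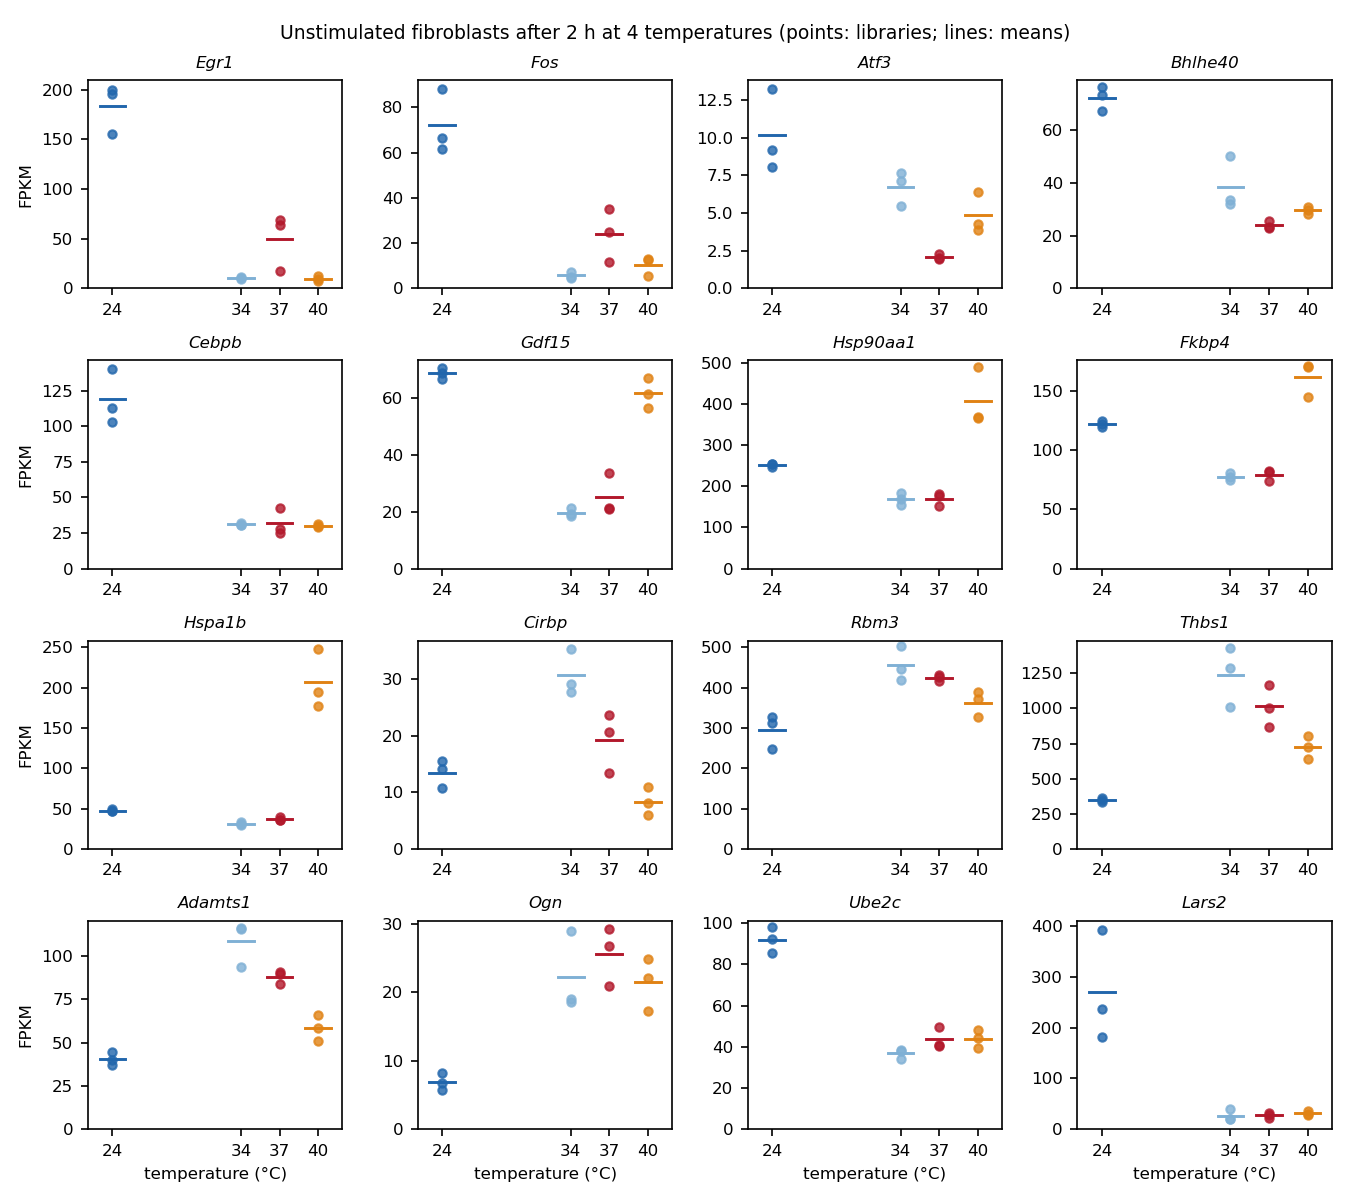
FPKM of 16 genes in unstimulated cells after 2 h at 24, 34, 37 and 40 °C, with 1 point per library and a line at the mean of 3. Egr1, Cebpb, Ube2c and Lars2 are high at 24 °C alone, Thbs1 and Ogn are low there, Gdf15 and Fkbp4 are high at 24 and 40 °C, and Cirbp and Rbm3 are highest at 34 °C.

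The same contrast exists in 4 sets of libraries from cells given a cytokine. Their values do not enter the log2 changes above, but all 60 libraries set the spread behind every call. Those cells had spent 3 or 5 h at their temperature in place of 2 h, and their 24 °C libraries come from the same run of library numbers. With TNF-α for 1 h, 14.9% of all genes were higher at 24 °C than at 37 °C and 13.4% lower. After 3 h of TNF-α it was 12.7% and 15.8%, with IL-1β for 1 h 12.1% and 9.74%, and for 3 h 10.1% and 15.4%. Of the 956 genes that rose in unstimulated cells, 664, 517, 644 and 531 were called higher in those 4 sets (69.5, 54.1, 67.4 and 55.5%). Of the 1142 that fell, 697, 579, 606 and 671 were called lower (61.0, 50.7, 53.1 and 58.8%). In all 4 sets, 366 of the 956 were called higher and 354 of the 1142 lower. These are 38.3 and 31.0% of the unstimulated genes, and 76.4 and 75.6% of the 479 and 468 genes so called in all 4. Calls in the opposite direction numbered 11 to 34 and 1 to 35 per set.

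Immediate-early genes were called higher in 7, 18, 8 and 19 of 23 cases with TNF-α for 1 and 3 h and IL-1β for 1 and 3 h, and lower in 7, 0, 4 and 0, against 16 and 3 without cytokine. Their median changes were -0.04, 0.78, 0.25 and 0.87. Egr1 was called higher in all 4 sets. With TNF-α for 1 and 3 h it averaged 229 ± 9.19 and 282 ± 9.61 FPKM at 24 °C against 74.7 and 12.9 FPKM at 37 °C, and with IL-1β for 1 and 3 h 237 ± 1.64 and 238 ± 4.72 FPKM against 67.0 and 7.37 FPKM (SD, n = 3 each). The changes of Dusp4 (2.04, 2.40, 2.07 and 2.02), Ybx1 (1.71, 1.41, 1.77 and 2.03), Ube2c (1.01, 0.94, 0.95 and 0.87) and Rpl38 (0.85, 0.67, 0.84 and 0.81) were called in all 4 sets. So were those of Tnc (-1.16, -1.38, -1.22 and -1.32), Carmn (-2.00, -1.64, -2.10 and -1.81), Ogn (-2.02, -1.31, -1.74 and -1.61), Col12a1 (-0.75, -0.59, -0.77 and -0.71) and Rbm3 (-0.70, -0.43, -0.56 and -0.60). Cirbp did not share that pattern. After 3 h of TNF-α it ranged over 19.0 to 21.8 FPKM at 24 °C and 11.2 to 12.0 FPKM at 37 °C and rose (0.75, SE 0.23, limma's adjusted p = 0.011). Its changes were 0.52 after 3 h of IL-1β, -0.09 after 1 h of TNF-α and -0.10 after 1 h of IL-1β, none of them called, and the term for a cytokine's effect on its cold difference was not called either (0.74, SE 0.26, limma's adjusted p = 0.12). Mitotic genes were called higher in 20, 12, 17 and 8 of 37 cases with 0 lower, and collagens lower in 5, 12, 9 and 12 of 20. Lars2 averaged 145 ± 26.3, 449 ± 312, 109 ± 23.2 and 352 ± 205 FPKM at 24 °C against 31.0, 24.8, 24.1 and 22.8 FPKM at 37 °C, with a wide spread again after 3 h.

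Whether the cold difference itself depends on the cytokine was tested as the mean of the 4 cytokine differences minus the unstimulated one. That term was called positive for 143 genes (1.41%) and negative for 188 (1.86%). It was called negative for 18 of 27 chemokine and effector genes and 9 of 14 NF-κB genes, and positive for 0 of either. Icam1, flat without cytokine, averaged 1.26, 5.07, 0.93 and 2.62 FPKM at 24 °C against 37.7, 123, 20.7 and 24.4 FPKM at 37 °C with TNF-α for 1 and 3 h and IL-1β for 1 and 3 h (term -3.66). Ccl2, higher at 24 °C without cytokine, averaged 67.6, 403, 65.2 and 225 FPKM at 24 °C against 1082, 1491, 724 and 450 FPKM at 37 °C (term -3.60). Relb averaged 5.72, 6.77, 4.38 and 6.47 FPKM at 24 °C against 27.7, 61.8, 24.5 and 26.0 FPKM at 37 °C (term -2.28). Fos went the other way (term 2.46), at 89.0, 69.9, 69.8 and 47.9 FPKM at 24 °C against 5.14, 2.04, 4.60 and 1.57 FPKM at 37 °C. Mt1 and Mt2, both raised by cold without cytokine, had terms of -1.71 and -2.25, and Mt1 was called in 0 of the 4 sets.

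**Figure D5:**
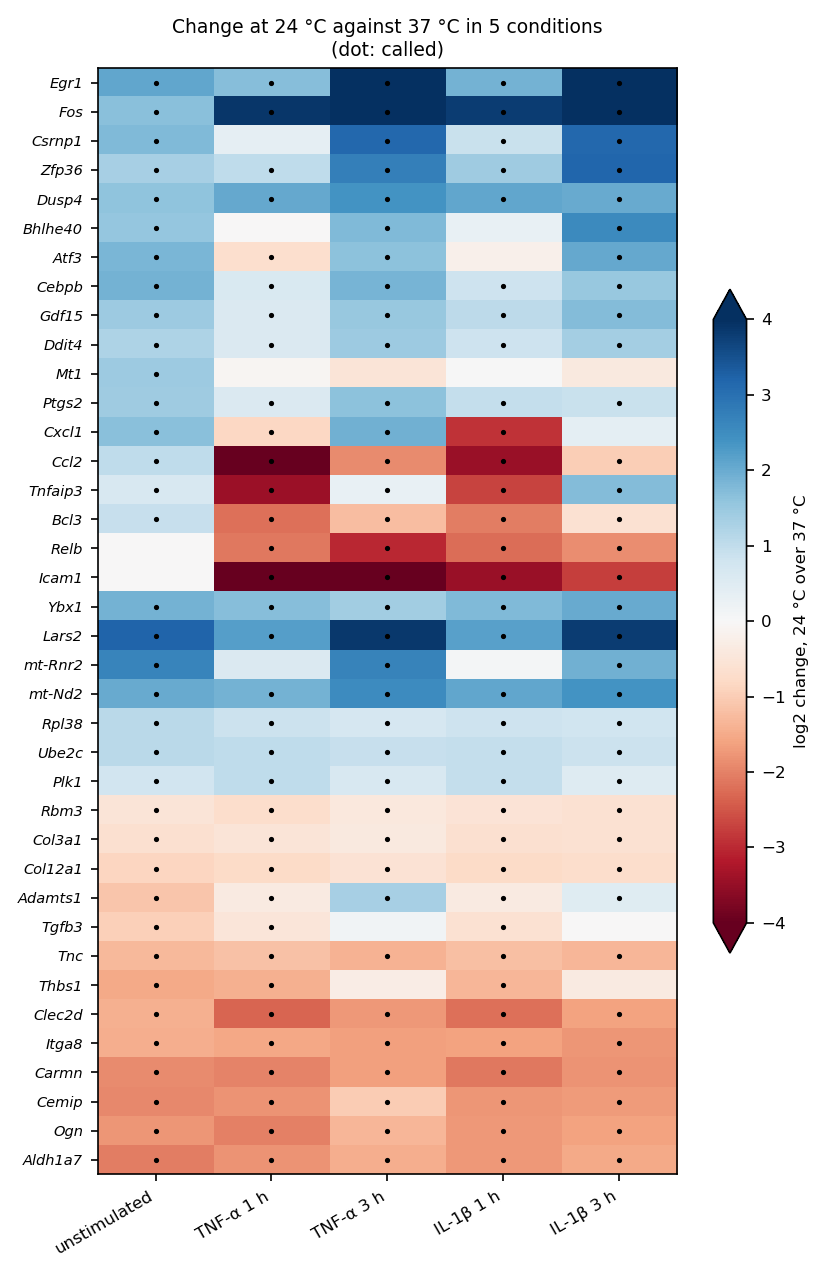
Log2 change at 24 °C over 37 °C (colour, cut off at 4 in either direction) for genes in rows and 5 conditions in columns, with a dot where the gene was called. Egr1, Dusp4, Ybx1 and Ube2c are blue in all 5 columns, Tnc, Carmn and Ogn are red in all 5, and Cxcl1, Ccl2, Tnfaip3 and Bcl3 are blue without cytokine and red after 1 h of either cytokine.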

How the data were processed

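The authors deposited FPKM values of 10122 genes in 60 libraries, made from total RNA. Per the submitters' processing notes, STAR 2.7.11b, RSEM 1.3.3, edgeR and GRCm39 were used, with no order or role given. The gene identifiers are those of GENCODE M21, so no coordinates are taken from them. A filter of FPKM 1 or more in 3 or more libraries removed 0 genes. Limma 3.58.1 in R 4.3.3 fitted log2(FPKM + 1) of all 60 libraries, with a mean for each group and a variance trend. Degrees of freedom were 40 (residual) and 4.37 (prior), and p-values were adjusted over all genes. The pseudocount understates changes of low genes. Depth was estimated from the steps between low FPKM values of 1651 genes with 1 transcript. The estimate is 3.53 to 7.65 M (mega) fragments per library, so values of a few FPKM are coarse. Shared sequence is the share of a transcript's 50-base words that occur in transcripts of other genes. Not every gene with shared words is marked above. Among others, the share was 51.6% for Hspb1, 51.1% for mt-Co1, 45.5% for Mt2, 44.8% for Hspd1, 34.4% for Pkm and 31.6% for Eif1. Members, lists and rules were chosen with earlier results of these data known. Genes were named by a rule: the 12 largest rises and falls that did not overlap, up to 4 called members per list with the largest change, the 6 most abundant called genes, the 6 steadiest changes in each direction over the 5 conditions, the 4 largest interaction terms in each direction, and 12 fixed genes. Other list members named were chosen after their values were seen, as were mt-Nd1, mt-Co1, Gm28437, Per1, Per2, Hspa5, Hspb1, Herpud1, Ddit3, Il6 and the cell markers. Alternatives were 2 other pseudocounts, a stricter filter, rescaled libraries, a fit of the compared libraries alone, a replicate block, no trend, each library left out and, chosen after the data were seen, a length adjustment. The fit was tested on simulated data. Tables were handled in Python 3.11.15. Rela and Nfkb2 are not analysed here.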

Additional observations from a re-analysis of the deposited data

Results flagged for a closer look

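For 37 of the named genes the difference between 24 and 37 °C itself differed with a cytokine. The values are the mean log2 difference of the 4 cytokine conditions minus that of unstimulated cells, each past the adjusted threshold of limma's test of that term. Cytokine-treated cells had also spent 1 or 3 h longer at their temperature, which cannot be told apart from the cytokine here.

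Negative terms, where 24 °C stood lower against 37 °C with cytokine than without, were found in genes of the NF-κB response and in others. Among chemokines and effectors they were -3.66 for Icam1, -3.60 for Ccl2, -3.17 for Cxcl5, -2.02 for Cxcl1 and -1.54 for Ccl9. Among NF-κB subunits and regulators they were -2.46 for Bcl3, -2.28 for Relb, -1.66 for Tnfaip3, -1.27 for Nfkbia, -1.27 for Nfkbib, -1.12 for Nfkb1 and -0.62 for Rel. Stress and metal-response genes had -2.25 for Mt2, -1.71 for Mt1, -1.14 for Atf3, -0.78 for Ddit3 and -0.45 for Hsp90aa1. The other negative terms were -1.08 for Ereg, -1.05 for Adamts4, -0.91 for Psmb10, -0.66 for P4ha2, -0.59 for Mir17hg, -0.48 for Atp2b4 and -0.46 for Rmrp.

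Positive terms were found in some early-response and growth factor genes, 2.46 for Fos, 1.28 for Irs2, 1.13 for Edn1, 0.99 for Per1 and 0.76 for Zfp36. Immediate-early genes had no common sign, with 3 of 23 called positive and 3 negative, Atf3 among the latter. Of 27 growth factor and receptor genes 3 were called positive and 1 negative. Genes of the matrix and of TGF-β and BMP signalling had 1.38 for Adamts1, 0.83 for P3h2, 0.72 for Tgfb3, 0.68 for Thbs1, 0.45 for Id1 and 0.41 for Smad7. The transporter gene Slc7a6 had 0.54 and the calcium sensor gene Stim1 0.52. For Adamts1, which fell at 24 °C without cytokine, the difference was -0.36 after 1 h of either cytokine, 1.31 after 3 h of TNF-α and 0.48 after 3 h of IL-1β.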

How the results depend on the processing

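Of the 203 named genes, 0 changed direction while called under any alternative. The call between 24 and 37 °C was lost by 1 and 4 with the other pseudocounts, 0 with rescaled libraries, 2 with no trend, 10 with the length adjustment, 15 to 34 with 1 library left out (34 without 24 °C replicate 1) and 69 with the 6 libraries alone. All 178 that passed the stricter filter stayed on their side. Fits of the compared libraries alone called 724 genes between 24 and 37 °C and 913 between 24 and 34 °C. They called 290 between 40 and 34 °C, 39 between 40 and 37 °C and 0 between 34 and 37 °C, where limma on all libraries had 660 at an unadjusted p below 0.05. With cytokine they called 1807 and 1919 (TNF-α, 1 and 3 h) and 1011 and 1434 (IL-1β) between 24 and 37 °C. These fits have fewer libraries to set the spread. With 1 library left out the counts were 1406 to 1907 between 24 and 37 °C, 14 to 28 between 34 and 37 °C, 242 to 400 between 40 and 37 °C and 657 to 827 between 40 and 34 °C. Without mitochondrial and small noncoding RNAs in the total, the shares at 24 and 37 °C were 13.1 and 11.6% for ribosomal proteins, 1.03 and 1.28% for collagens and 1.94 and 1.71% for the respiratory chain, which over all genes had 0.861 and 0.909%, the opposite order. Deviations of same-numbered replicates of the groups correlated at 0.107, -0.0195 and 0.0429, and those of other pairs at -0.0931 to 0.0538. These values cannot show whether same-numbered replicates share more than a number. A replicate block gave 2413 calls in place of 2098 and left all 203 named genes on their side. Depth limits genes of a few FPKM, such as Omd, Lcn2 and Krt10.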
